A study of Homo sapiens with 10 samples.

Results

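The genes described here lie on the long arm of human chromosome 11, from CEP295 to ZBTB16, a stretch that spans bands 11q21 to 11q23 by the label of the gene list and holds YAP1. They were chosen as a list of 59 named genes after an earlier look at the same arrays had shown a run of higher genes in this stretch. Of the 59, 42 were measured, out of 14884 genes measured in all, and 17 were not analysed here: TAF1D, FUT4, FAM76B, TRPC6, BIRC3, DCUN1D5, DYNC2H1, CASP1, CASP4, CASP5, CWF19L2, SLC35F2, NPAT, PPP2R1B, ALG9, SDHD and ZW10. All 42 lie on chromosome 11 in the RefSeq gene table, in the listed order. Because the values of this comparison chose the stretch, the differences of its genes are given as a description and support nothing beyond themselves.

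The data were log2 signals of 10 expression arrays of MCF10A, a line of human breast epithelial cells that is immortal but does not form tumours. One group of 5 was the parental line with intact H2A.X (labelled WT). The other group of 5 carried a knockout of the gene of histone H2A.X, a variant that is phosphorylated around DNA double-strand breaks. Both were grown in DMEM/F12 with 5% horse serum, EGF, insulin, hydrocortisone and cholera toxin, and RNA was taken after 48 hours. The labels do not say whether the knockout cells were a single clone or several, or whether the 5 samples of a group were separate cultures, so the errors and tests cover the spread among these samples alone, and that spread may be technical. The series title puts the question as the part of TWIST1 and Slug in the epithelial-mesenchymal transition that H2A.X regulates. DNA copy number was not measured.

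The array medians over all probe sets lay between 4.26 and 4.35, and the lowest correlation between arrays across the genes was 0.975. Of 3 measured basal epithelial markers (KRT5, KRT14 and EGFR) all 3 were above the median signal of all genes, and the mean of the 3 ran from 9.35 to 9.51 in parental and from 10.7 to 10.9 in knockout arrays. Of the luminal markers 3 of 6 were above it, with means of 6.27 to 6.46 and 5.97 to 6.12. The fibroblast markers (0 of 3 above it) had means of 3.98 to 4.25 in parental and 4.73 to 4.89 in knockout arrays, through DCN alone (2.06), while LUM and THY1 did not pass the test. Immune (2 of 3 above it; means 6.42 to 6.53, then 6.28 to 6.43), endothelial (1 of 3; 3.83 to 4.02, then 4.35 to 4.65) and adipocyte markers (0 of 2; 3.71 to 3.89, then 3.71 to 4.02) were the other lists. Of the immune markers CD14 (-0.76) and CD68 (-0.37) fell and CSF1R (0.72) rose, and of the endothelial markers KDR rose (1.69) while PECAM1 and VWF did not pass. The part of these shifts in the differences below was not tested. In bulk RNA, fewer cells of a type and less RNA per cell cannot be told apart.

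YAP1 encodes the transcriptional coactivator at the end of the Hippo pathway: the kinases of that pathway keep it out of the nucleus, and in the nucleus it drives growth genes through the TEAD factors. AMOTL1, from the same stretch, encodes an angiomotin-like scaffold that binds YAP1 at cell junctions. The other genes of the stretch have little in common in function. Neighbours such as BIRC2 and YAP1 are known in cancer biology because the region around them is amplified together in some tumours.

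The sequences just before the start of the genes are shown first, because the members were grouped by place and a shared promoter feature is a separate property that the choice did not use. RefSeq (GRCh38.p14) gave the 250 bases before the start for 35 of the 42 measured members. Of these, 3 held GGAATG, the core of the TEAD motif, on either strand (8.57%, against 11.9% of all 27305 promoters and 9.11% of those of 5980 measured genes whose mean signal reached the median of all genes, called brighter below). Another 3 held CAGGTG on either strand, the E-box to which Slug and related factors bind (8.57%, against 17.5% and 15.1%). The motifs do not overlap each other. The median number of CG pairs was 22 in the members, 11 in all promoters and 21 in those of the brighter genes. A match is only a match of letters, and no match says only that these letters are not in this window. The YAP1 stretch, chr11:102110197-102110446 (+ strand), is printed because it holds the TEAD letters (in capitals), the AMOTL1 stretch, chr11:94768106-94768355 (+ strand), because AMOTL1 had the larger difference of the Hippo pair, and the ZC3H12C stretch, chr11:110093142-110093391 (+ strand), because that gene had the largest difference of all members.
YAP1: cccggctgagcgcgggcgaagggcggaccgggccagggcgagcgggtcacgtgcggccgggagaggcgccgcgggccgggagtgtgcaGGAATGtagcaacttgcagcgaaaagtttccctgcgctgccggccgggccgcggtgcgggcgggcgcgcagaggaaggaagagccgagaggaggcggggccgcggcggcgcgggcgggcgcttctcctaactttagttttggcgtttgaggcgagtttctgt
AMOTL1: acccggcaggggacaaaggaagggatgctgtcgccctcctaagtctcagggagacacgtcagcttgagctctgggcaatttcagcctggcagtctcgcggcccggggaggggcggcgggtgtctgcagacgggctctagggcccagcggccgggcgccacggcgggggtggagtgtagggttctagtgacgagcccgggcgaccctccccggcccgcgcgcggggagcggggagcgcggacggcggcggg
ZC3H12C: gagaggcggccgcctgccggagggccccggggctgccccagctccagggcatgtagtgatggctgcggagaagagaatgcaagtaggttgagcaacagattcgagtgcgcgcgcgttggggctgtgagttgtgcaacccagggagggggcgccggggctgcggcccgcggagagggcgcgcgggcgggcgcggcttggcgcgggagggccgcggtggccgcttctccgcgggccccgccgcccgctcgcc

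The other matches are printed with 20 bases on each side and the matched letters in capitals. They are the E-box letters before CEP295 (chr11:93661451-93661496, + strand), ENDOD1 (chr11:95089619-95089664, + strand) and ACAT1 (chr11:108121334-108121379, + strand), and the TEAD letters before PANX1 (chr11:94128758-94128803, + strand) and, on the reverse strand, before MTMR2 (chr11:95924296-95924341, - strand). All 6 genes with a match, YAP1 included, were among the members that rose, which were 20 of the 35 members with a promoter sequence; this was not tested.
CEP295: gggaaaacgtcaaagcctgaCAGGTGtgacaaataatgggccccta
ENDOD1: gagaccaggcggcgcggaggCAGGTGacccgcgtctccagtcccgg
ACAT1: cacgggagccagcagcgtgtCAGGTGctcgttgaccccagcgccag
PANX1: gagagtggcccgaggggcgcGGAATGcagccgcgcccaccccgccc
MTMR2: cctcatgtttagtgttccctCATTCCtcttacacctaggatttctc

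Many genes of the stretch were higher in the knockout cells and few were lower. Differences are knockout minus parental on the log2 scale, with limma's standard error, and a gene passed at a Benjamini-Hochberg adjusted p under 0.05 over all 14884 genes; rose and fell are used for those that passed. Of the 42 measured members 22 rose and 1 fell, and the other 19 were without a call. Over all genes 15.3% rose and 19% fell, 34.3% in either direction. In the same 22 all knockout arrays lay above all parental arrays, and in the 1 that fell all lay below (12.2% and 16% over all genes). The median difference was 0.27, beside 0.00 over all genes, and 32 of the 42 differences were above 0. Since the stretch was found by these differences, nothing is read from the counts.

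Signal strength divided the members, as it divided all genes. A gene is called brighter here when its mean over the 10 arrays reached the median of all gene means, 5.49, and dimmer otherwise. Of the 30 brighter members, 21 rose, 1 fell and 8 did not pass, with a median of 0.41 (over all brighter genes 24.1% rose, 31.5% fell and the median was -0.03). PDGFD, among the 21, counts as brighter through its knockout arrays alone, with a parental mean of 5.09 and a knockout mean of 6.44. Of the 12 dimmer members, 1 rose (8.33%) and 11 did not pass, with a median of 0.0020. This is near the share over all 7442 dimmer genes, of which 479 rose (6.44%) and 492 fell, with a median of 0.01. Among the brighter members the difference did not follow the parental level closely (Pearson correlation -0.23 and Spearman rank correlation -0.21 across 30 genes, which share the same arrays). The parental level is also part of the difference, which by itself pushes such a correlation to the negative side, so nothing is read from it.

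**Figure D1:**
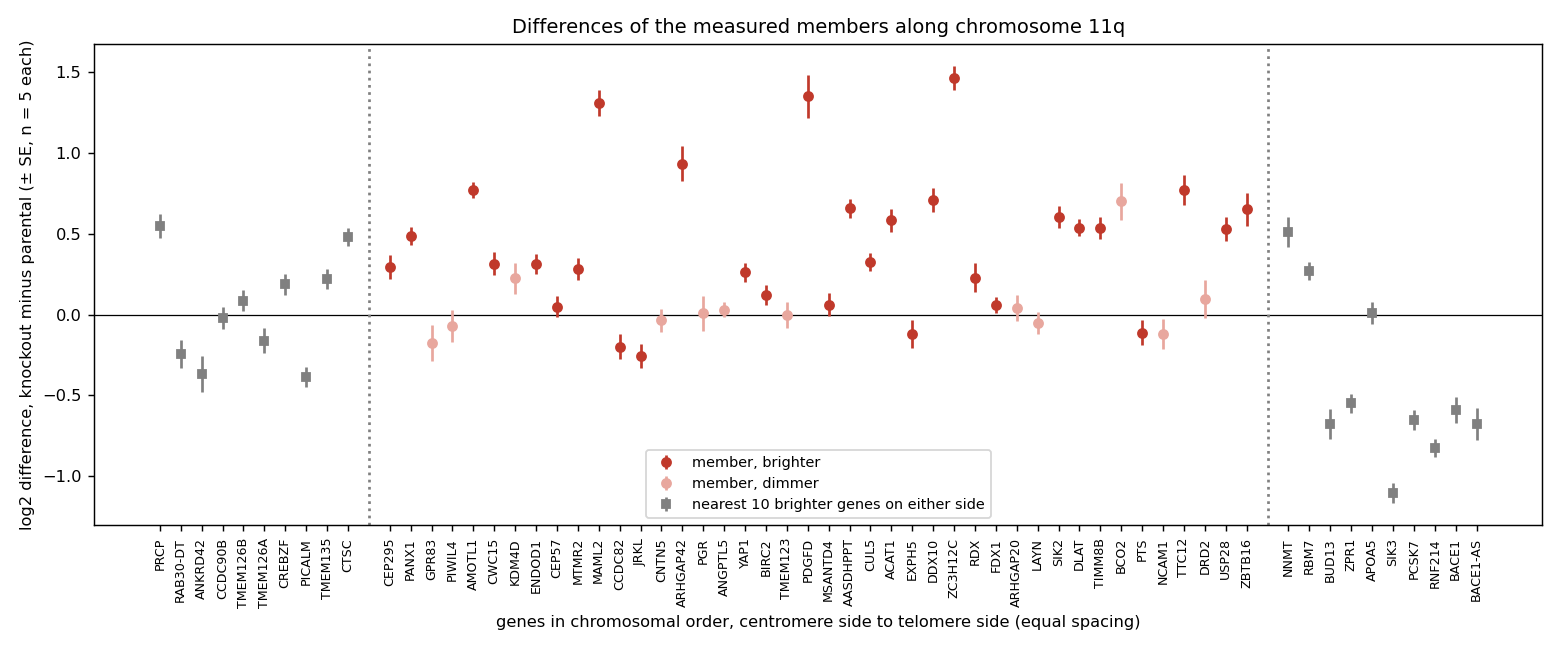
Log2 difference, knockout minus parental (vertical axis, points with SE, n = 5 each), for the 42 measured members in chromosomal order at equal spacing, with the 10 nearest brighter genes on either side in grey squares. Dark red points are the 30 brighter members and light red points the 12 dimmer ones; most dark points lie above 0, at uneven heights, and 7 of the 10 grey squares on the telomere side fell.

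The Hippo genes of the stretch both rose, YAP1 less than its partner. YAP1 signals (probe set 16730503) were 8.98, 8.97, 9.16, 8.97 and 9.01 in parental arrays 1 to 5 and 9.19, 9.24, 9.32, 9.30 and 9.35 in knockout arrays 1 to 5. All 5 knockout values exceeded all 5 parental values, though parental array 3 came close. The means were 9.02 ± 0.08 and 9.28 ± 0.06 (SD, n = 5 each), a difference of 0.26 ± 0.06 (SE), or 1.2-fold. A second YAP1 probe set gave 6.44 ± 0.14 and 6.63 ± 0.18, a difference of 0.18. AMOTL1 (probe set 16730268) gave 7.86, 7.83, 7.91, 7.85 and 7.78 in parental and 8.64, 8.61, 8.62, 8.67 and 8.55 in knockout arrays. Its groups were far apart and tight, with a difference of 0.77 ± 0.05, or 1.71-fold. The other AMOTL1 probe set differed by 0.33, from 5.17 ± 0.15 to 5.50 ± 0.18.

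Genes of the same pathway that lie elsewhere moved in both directions. Of 12 measured of 22 listed YAP and TEAD target genes, 7 rose, 2 fell and 3 did not pass, with a median of 0.33. Over all genes 15.3% rose and 19% fell, and over all brighter genes 24.1% and 31.5%. The leading rises were CRIM1 (1.29 ± 0.05), CCDC80 (1.20 ± 0.08), FJX1 (1.14 ± 0.07) and CCN2 (0.70 ± 0.09), and AXL (-0.49 ± 0.07) and IGFBP3 (-0.55 ± 0.11) fell. A further 19 Hippo genes were listed, and of the 17 measured 3 passed upward and 3 downward, near the shares over all genes. Their median was -0.05, and nothing about the pathway is read from these counts. VGLL3, a TEAD cofactor gene, had the largest rise (2.45 ± 0.07). SAV1, the scaffold of the Hippo kinases (-0.55 ± 0.06), TEAD2 (-0.46 ± 0.09) and WWTR1, the paralog of YAP1 (-0.24 ± 0.06), fell.

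The largest differences of the stretch belonged to genes of unrelated function that are spread along it. ZC3H12C, which encodes an RNase of the Regnase family (probe set 16730976), gave 7.22, 7.32, 7.30, 7.51 and 7.30 in parental and 8.65, 8.84, 8.79, 8.72 and 8.999 in knockout arrays. The lowest knockout array was over 1 unit above the highest parental array, and the difference was 1.46 ± 0.08, or 2.76-fold. PDGFD, a ligand of the PDGF receptor beta (probe set 16743816), was at 5.01, 5.36, 5.17, 4.61 and 5.30 in parental arrays and 6.49, 6.54, 6.605, 6.17 and 6.40 in knockout arrays. Parental array 4 was the low one of its group, and the groups did not overlap (difference 1.35 ± 0.13). The parental mean of PDGFD, 5.09, was under the median of all gene means, so the fold is uncertain.

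MAML2, a Mastermind-like coactivator of Notch (probe set 16743517), measured 5.81, 5.74, 5.77, 6.18 and 5.98 in parental and 7.13, 7.26, 7.18, 7.21 and 7.26 in knockout arrays. The knockout arrays were close together and all above parental array 4, the highest of its group, with a difference of 1.31 ± 0.08. A second, dimmer MAML2 probe set went from 3.38 ± 0.19 to 3.55 ± 0.26, a difference of 0.17. For ARHGAP42, a GTPase-activating protein gene, parental arrays read 6.08, 6.34, 6.07, 6.02 and 5.87 and knockout arrays 6.66, 7.17, 6.99, 7.02 and 7.21. Knockout array 1 was the lowest of its group and still above all parental arrays (difference 0.93 ± 0.11). ARHGAP20, another gene of that family, was dim in both groups and differed by 0.04 ± 0.08.

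Genes of mitochondria and metabolism rose in 5 of 7 measured cases. The share was 70% among the brighter members, 24.1% among all brighter genes and 15.3% among all genes. Counts by function, here and below, are a description and were not tested. DLAT, the acetyltransferase subunit of the pyruvate dehydrogenase complex, gave 8.56, 8.65, 8.69, 8.71 and 8.59 in parental and 9.21, 9.21, 9.21, 9.18 and 9.09 in knockout arrays. Its groups lay apart, with a difference of 0.54 ± 0.05. ACAT1, the mitochondrial acetoacetyl-CoA thiolase, measured 6.20, 6.21, 6.08, 6.25 and 6.01 and then 6.66, 6.58, 6.85, 6.80 and 6.77, also without overlap (0.58 ± 0.07). TIMM8B, a small chaperone of the mitochondrial intermembrane space, was at 7.68, 7.71, 7.51, 7.71 and 7.72 in parental arrays and at 8.20, 8.28, 8.30, 8.19 and 8.05 in knockout arrays. Parental array 3 and knockout array 5 were the low ones of their groups, and the difference was 0.54 ± 0.07. AASDHPPT, which attaches the phosphopantetheine arm to acyl carrier proteins, went from 8.11, 8.12, 8.02, 8.05 and 8.05 to 8.83, 8.76, 8.75, 8.59 and 8.71, apart by 0.66 ± 0.06.

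The remaining 3 of this set were less alike. BCO2, a carotenoid-cleaving enzyme of mitochondria, was the only dimmer member that rose (0.70 ± 0.11), from 4.48 ± 0.24 to 5.19 ± 0.16 (SD, n = 5 each). FDX1, the ferredoxin of mitochondrial cytochrome P450 enzymes, had a difference of 0.06 ± 0.05, and PTS, an enzyme of tetrahydrobiopterin synthesis, one of -0.11 ± 0.08; neither passed. DLAT, TIMM8B and BCO2, at 0.54, 0.54 and 0.70, follow each other among the measured members, and PTS comes next.

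The 2 measured genes listed under ubiquitin, CUL5 and USP28, both rose, beside 22 of all 42 measured members and 15.3% of all genes. BIRC2, also a ubiquitin ligase gene, was listed under cell death and did not pass (0.12 ± 0.06). CUL5, the scaffold of a cullin ubiquitin ligase, gave 8.20, 8.34, 8.16, 8.33 and 8.25 in parental and 8.60, 8.67, 8.57, 8.52 and 8.54 in knockout arrays, without overlap (0.33 ± 0.06). USP28, a deubiquitinase, measured 6.68, 6.73, 6.65, 6.87 and 6.82 and 7.13, 7.32, 7.49, 7.25 and 7.23. All its knockout arrays lay above all parental ones, with a difference of 0.53 ± 0.07. Among kinases and phosphatases, SIK2, a salt-inducible kinase, was at 8.93, 8.85, 9.02, 9.01 and 9.11 in parental and 9.49, 9.58, 9.51, 9.64 and 9.73 in knockout arrays (difference 0.61 ± 0.07), again apart. MTMR2, a phosphoinositide phosphatase, rose by 0.28 (8.47 ± 0.14 to 8.75 ± 0.04, SD, n = 5 each).

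Of 10 measured genes of transcription, chromatin and RNA processing, 5 rose, 1 fell and 4 did not pass (over all genes 15.3% rose and 19% fell). Besides ZC3H12C and MAML2 those that rose were DDX10, ZBTB16 and CWC15. DDX10, a DEAD-box RNA helicase, gave 6.61, 6.77, 6.65, 6.66 and 6.47 in parental and 7.43, 7.27, 7.36, 7.15 and 7.49 in knockout arrays (0.71 ± 0.08), groups apart. ZBTB16, the zinc finger repressor also called PLZF and the last gene of the list, read 6.72, 6.78, 6.90, 6.81 and 6.85 and then 7.27, 7.33, 7.45, 7.38 and 7.89. Knockout array 5 was the highest by some way, and the groups did not overlap (0.65 ± 0.10). CWC15, a spliceosome component, rose by 0.32. JRKL, a gene of the Jerky family, was the one member that fell (-0.26 ± 0.08, from 6.49 ± 0.05 to 6.23 ± 0.16, SD, n = 5 each). Under quantile normalisation JRKL no longer passed (limma, adjusted p = 0.0545), and over the alternatives its adjusted p otherwise stayed under the threshold.

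PGR, which encodes the progesterone receptor, was among those that did not pass. Its signals were 2.86, 3.14, 2.63, 2.73 and 2.96 in parental and 3.20, 2.74, 2.79, 2.90 and 2.72 in knockout arrays. The groups overlapped throughout at a dim level, and the difference was 0.01 ± 0.11, with a 95% interval of -0.23 to 0.25. The histone demethylase gene KDM4D (0.22 ± 0.10), the Piwi family gene PIWIL4 (-0.07 ± 0.10) and MSANTD4 (0.06 ± 0.07) did not pass either.

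Of 2 measured genes tied to cell death 1 rose (15.3% over all genes). BIRC2, the ubiquitin ligase cIAP1 that restrains cell death signalling and lies next to YAP1 among the measured members, gave 6.87, 6.98, 6.80, 6.97 and 6.99 in parental and 7.04, 7.07, 7.001, 6.94 and 7.16 in knockout arrays. The groups overlapped, and the difference was 0.12 ± 0.06, with a 95% interval of -0.01 to 0.25. PANX1, a membrane channel that caspases open in dying cells, rose by 0.49 ± 0.06, from 8.10 ± 0.09 to 8.58 ± 0.04 (SD, n = 5 each). The partners encoded elsewhere were mostly without a call, as were most genes (34.3% of all genes passed). Of 9 inflammasome genes 3 were measured and 0 passed in limma (1, PYCARD, at an unadjusted p under 0.05). Of 4 measured of 8 genes around the IAP ligases MAP3K14 rose (0.54 ± 0.10) and XIAP fell (-0.58 ± 0.10).

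Centrosome and cilium genes gave mixed values. TTC12, a factor in the assembly of ciliary dynein arms, was at 5.50, 5.68, 5.69, 5.71 and 5.60 in parental and 6.16, 6.50, 6.30, 6.38 and 6.70 in knockout arrays. All knockout arrays were higher, with array 5 the highest (0.77 ± 0.09). CEP295, a centriole protein gene at the other end of the stretch, rose by 0.29, while CEP57, also of the centrosome, had a difference of 0.05 ± 0.06 and did not pass.

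Of 9 measured cytoskeleton, adhesion, receptor and secreted factor genes, PDGFD alone rose (11.1%, beside 15.3% over all genes). RDX, which encodes radixin, a linker of actin to the membrane, differed by 0.23 ± 0.09 and did not pass. Its arrays read 6.50, 6.37, 6.44, 6.35 and 6.41 and then 6.999, 6.49, 6.604, 6.55 and 6.57, and knockout array 1 stood above the others; without it the difference was 0.14. RDX passed with an intensity trend and robust fitting of the variance prior together (limma, adjusted p = 0.0438), with the replicate block (limma, adjusted p = 0.0357), without the dimmer genes (limma, adjusted p = 0.0284) and without knockout array 2 (limma, adjusted p = 0.0428). EXPH5, a Rab27 effector gene, gave -0.12 ± 0.09. The neural genes CNTN5 (-0.03 ± 0.07), NCAM1 (-0.12 ± 0.09) and DRD2 (0.10 ± 0.12), the receptor genes GPR83 (-0.18 ± 0.11) and LAYN (-0.05 ± 0.07), and ANGPTL5 (0.03 ± 0.05) were all dim and did not pass.

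The last members are ENDOD1, a nuclease domain gene that rose by 0.32, and CCDC82 at -0.20 ± 0.08, which did not pass; it passed as lower without the dimmer genes (limma, adjusted p = 0.0274) and without parental array 1 (limma, adjusted p = 0.0398). CCDC82 and JRKL follow each other in the order. TMEM123, a membrane mucin-like protein gene, was dim and at -0.0039 ± 0.08, with a second probe set at 0.15.

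**Figure D2:**
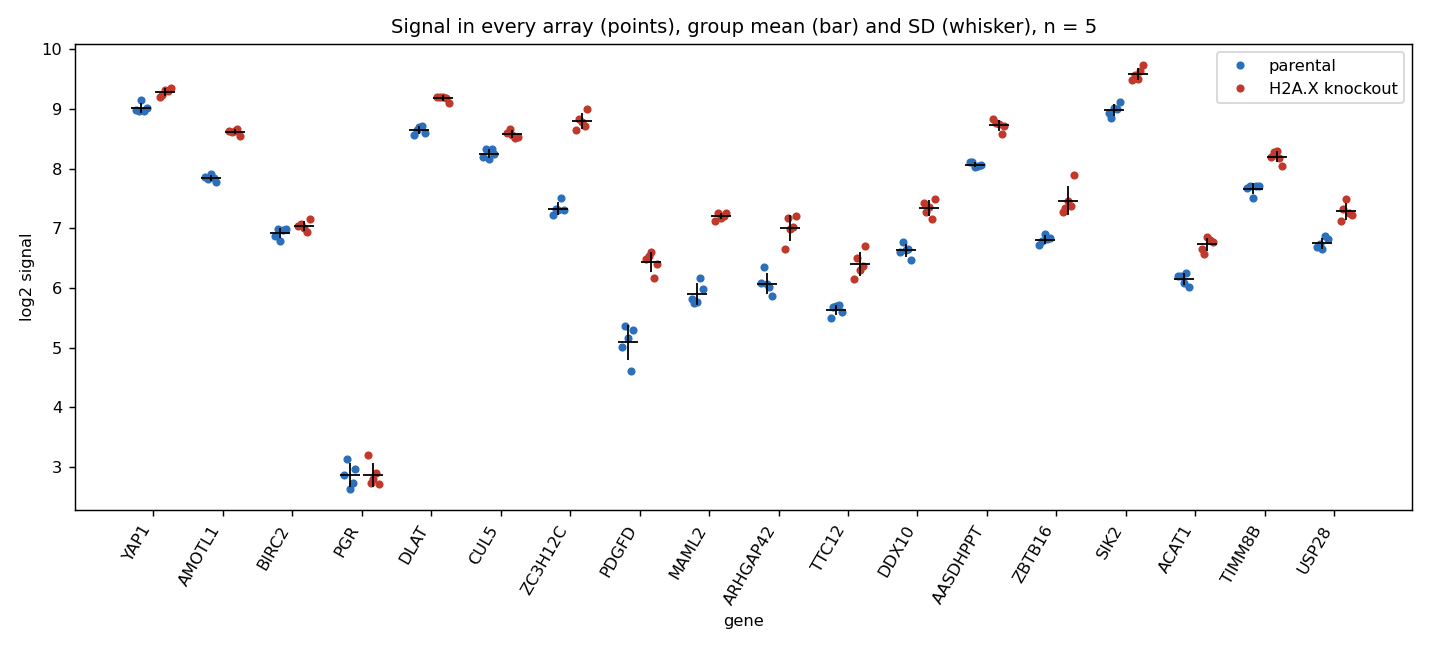
Log2 signal (vertical axis) of 18 members in every array, blue for parental and red for H2A.X knockout, with a bar at the mean and whiskers for the SD (n = 5 each). The groups overlap for BIRC2 and PGR and lie apart for the other 16 genes shown.

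The rise was not even. Among the 30 brighter members the differences had an SD of 0.44, which was 6.17 times their median standard error of 0.07. Over all brighter genes the SD was 0.48, with a median standard error of 0.07. The spread among the members was thus no wider than among brighter genes in general, and it is not particular to the stretch. The middle quartiles of them ran from 0.15 to 0.66, and the 95% interval of 9 of the 30 held their median. A signal 1.5 times as high, the ratio of 3 gene copies to 2 if signal followed dose in full, corresponds to 0.58 on this scale. The intervals of 10 members held that value, those of 15 lay below it and those of 5 lay above it. The 10 were PANX1, AASDHPPT, ACAT1, DDX10, SIK2, DLAT, TIMM8B, TTC12, USP28 and ZBTB16. Those above were AMOTL1, MAML2, ARHGAP42, PDGFD and ZC3H12C, and YAP1 and CUL5 were among those below. PDGFD is in this set of brighter members through its knockout arrays alone. Array signals tend to compress true ratios, and whether DNA dose had a part in these differences was not tested.

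**Figure D3:**
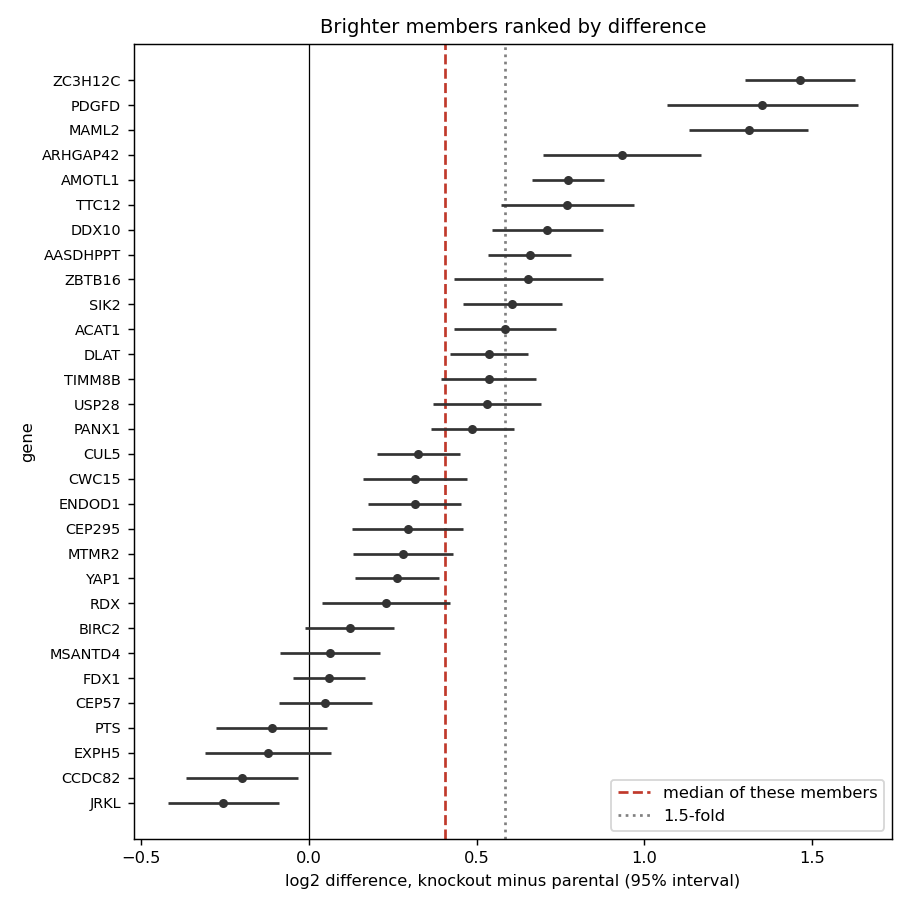
The 30 brighter members ranked by log2 difference, knockout minus parental (horizontal axis), each with its 95% interval. The dashed line is their median of 0.41 and the dotted line a 1.5-fold higher signal; 9 intervals cross the first and 10 the second.

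By place, the brighter members of the middle and the telomere side of the list had higher medians than those of the centromere side. The measured members were cut in order into 3 sets of 14. From CEP295 to JRKL the 10 brighter members had a median of 0.30 and 7 rose. From ARHGAP42 to ZC3H12C it was 0.58 for 11, of which 8 rose, and from RDX to ZBTB16 it was 0.54 for 9, of which 6 rose. The shares that rose were alike in the 3 sets, at 70%, 72.7% and 66.7%, beside 24.1% over all brighter genes. The middle median includes PDGFD, which counts as brighter through its knockout arrays alone. Among the brighter members of these sets the differences had SDs of 0.46, 0.52 and 0.30. Over all 14 members of each set, dimmer ones included, the medians were closer, at 0.25, 0.29 and 0.38. Of these members 7, 8 and 7 rose, beside 15.3% over all genes. The stretch was chosen by these differences, and the sets were not tested against each other. Neighbours could be far apart: MAML2 stood at 1.31 between MTMR2 at 0.28 and CCDC82 at -0.20, and ZC3H12C at 1.46 stood before RDX at 0.23 and FDX1 at 0.06.

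The rise was there in every knockout array, but the stretch was chosen by these same arrays, so this is a description and no support. The parental mean is the reference, so the parental arrays lie around it by construction. The median deviation of the 30 brighter members from the parental mean was 0.41, 0.46, 0.45, 0.40 and 0.36 in knockout arrays 1 to 5, and -0.05, 0.05, -0.03, 0.06 and -0.01 in parental arrays 1 to 5. Between 25 and 26 of the 30 were above the parental mean in each knockout array. Within the groups the members did not move together much from array to array: with group means removed, the mean correlation between pairs of brighter members over the 10 arrays was 0.08, beside 0.06 for all pairs of brighter genes. It was 0.15 among parental arrays, beside 0.04, and 0.03 among knockout arrays, beside 0.07. These correlations share the arrays and are a description.

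**Figure D4:**
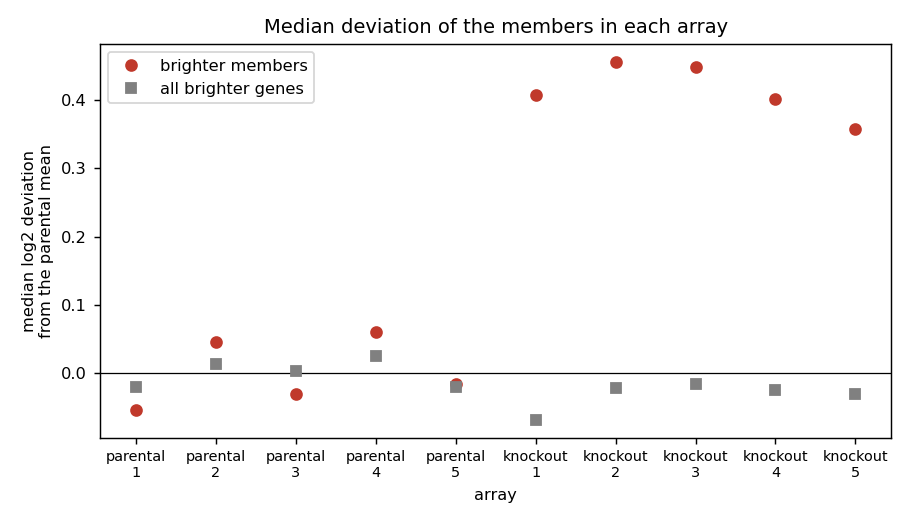
Median log2 deviation from the parental mean (vertical axis) in each of the 10 arrays, as red circles for the 30 brighter members and grey squares for all brighter genes. The 5 knockout arrays lie between 0.36 and 0.46 for the members, and the grey squares stay near 0.

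The ends of the list do not mark a clean border in the values. Between CEP295 and ZBTB16 lie 54 measured genes that are not on the list. Of these, 11 rose and 4 fell (over all genes 15.3% and 19%), with a median of 0.06. Of the 14 brighter ones 8 rose and 3 fell (over all brighter genes 24.1% and 31.5%), with a median of 0.28. SESN3, a sestrin of the stress response (2.60 ± 0.13), MRE11, a nuclease of double-strand break repair (1.44 ± 0.06), the cytokine gene IL18 (1.15 ± 0.06) and CFAP68 (0.66 ± 0.06) had the largest rises among them. SESN3 counts as brighter through its knockout arrays, since its parental mean was 4.72 and its knockout mean 7.31. C11orf54 (-0.68 ± 0.09), POGLUT3 (-0.52 ± 0.06) and the Mediator subunit gene MED17 (-0.32 ± 0.06) fell. C11orf54 and MED17 come soon after CEP295, so the first rises stand among falls.

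Outside the list, the 10 measured genes on the centromere side of CEP295 were all dimmer, and 1 of them, SMCO4, fell (-0.38). The 10 nearest brighter genes on that side had a median of 0.03, with 4 rises and 3 falls. Beyond ZBTB16, the next genes NNMT (0.51 ± 0.09) and RBM7 (0.27 ± 0.06) still rose. BUD13 (-0.68 ± 0.09) and ZPR1 (-0.55 ± 0.06) after them fell. The 10 measured genes next to ZBTB16 on the telomere side, dimmer ones included, had a median of 0.02, with 2 rises, 2 falls and 6 without a call, APOA5 (0.01) and APOA1 (0.09) among the latter. The 10 nearest brighter genes on the telomere side had a median of -0.62, with 2 rises and 7 falls. The largest of these falls was that of SIK3 (-1.10 ± 0.06), a relative of SIK2. Over all brighter genes 24.1% rose and 31.5% fell. The border values stand beside the choice of the list and were not tested.

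Partners of the members in protein complexes, and close relatives, that are encoded elsewhere gave no common shift. Of 24 measured of 40 listed, 8 rose, 10 fell and 6 did not pass, with a median of -0.01. Over all genes 15.3% rose and 19% fell, and over all brighter genes 24.1% and 31.5%. For DLAT (0.54), the other pyruvate dehydrogenase genes PDHA1 (0.25 ± 0.06) and DLD (0.18 ± 0.06) rose and PDHB (0.06 ± 0.05) did not pass. For TIMM8B (0.54), TIMM8A (0.44 ± 0.11) and TIMM13 (0.39 ± 0.07) rose, while TIMM9 (0.14) and TIMM10 (-0.07) did not pass. CUL5 rose by 0.33, and RNF7, the RING subunit of its ligase, fell (-0.32 ± 0.06). CWC15 rose by 0.32, and of its spliceosome partners PRPF19 rose (0.21 ± 0.06) and CDC5L (-0.38 ± 0.05) and PLRG1 (-0.48 ± 0.08) fell. EZR (-0.48 ± 0.05) and MSN (-0.32 ± 0.05), the relatives of RDX, fell. MTMR1, a relative of MTMR2, had the largest fall (-1.21 ± 0.09), and KNTC1, a kinetochore partner of ZW10, the largest rise (0.76 ± 0.08). Differences between a member and its partners were not tested.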

How the data were processed

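RNA of 5 parental and 5 H2A.X knockout MCF10A samples was measured on Affymetrix arrays. The authors deposited 1 log2 signal for each probe set and array, with the tools Affymetrix Expression Console and Partek 6.6 listed in the submitters' processing notes; the summary and normalisation methods were not given in the sources used here. Of 53617 probe sets, 16098 had 1 gene symbol in the platform annotation, 0 had several and 37519 had none; all 16098 matched RefSeq by Entrez identifier. The probe set with the highest mean stood for each of 14884 genes. Whether a shift of all transcripts could show in these values is unknown. For arrays, their number limits the precision; the median standard error was 0.08.

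Differences were fitted with lmFit and eBayes of limma 3.58.1 (R 4.3.3), with no covariate, filter or further normalisation, and adjusted over all genes. On simulated data of 14884 genes with 200 changed, 81% of changes of 0.5 and 98% of changes of 1 were recovered, with 13 unchanged genes called. In the real arrays 34.3% of genes passed, a far larger share than was changed there, and the adjustment depends on that share. The simulated rates may therefore not hold for these arrays. The members and lists were chosen with earlier results of these data known. Every measured member is named; array values are given for 10 genes fixed by name, of which 6 were measured, and for the 12 other members with the largest difference among those that passed with a group mean above the median, besides RDX, added after its values were seen. Of other lists, up to 4 genes that passed without overlap were named; further ones were chosen after their values were seen. RefSeq (GRCh38.p14) was used for order and promoters. The labels do not say what the replicate numbers share, and the main fit did not pair the samples by them. Python 3.11.15, numpy 2.4.6, pandas 2.3.3 and matplotlib 3.10.9 were used. The alternatives were quantile normalisation, median centring, leaving out dimmer genes, an intensity trend with robust fitting, the mean of probe sets, the replicate number as a block, and leaving out each array.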

Additional observations from a re-analysis of the deposited data

Results flagged for a closer look

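In 6 of 84 groups of 5 arrays (42 members in 2 groups), a single array stood apart from the other 4 by Dixon's criterion, which chance meets in about 1 in 20 groups. YAP1 was highest in parental array 3, at 9.16 against 8.97 to 9.01 in the others. MTMR2 was lowest in knockout array 1, at 8.67 against 8.76 to 8.77. RDX was highest in knockout array 1, at 6.999 against 6.49 to 6.604. DLAT was lowest in knockout array 5, at 9.09 against 9.18 to 9.21. TIMM8B was lowest in parental array 3, at 7.51 against 7.68 to 7.72. ANGPTL5, a dim gene, was lowest in parental array 4, at 2.98 against 3.02 to 3.04. Knockout array 1 and parental array 3 each appear in 2 of the 6, and YAP1, DLAT, TIMM8B and MTMR2 passed the test without the array in question.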

How the results depend on the processing

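Of the 23 members with a call, 22 kept direction and call under all 16 alternatives that included them, the exception being JRKL, and of the 19 without a call 15 kept direction and stayed without one, the others being CCDC82, RDX, PGR and TMEM123. The number of members that rose was 22 or 23 throughout. The number that fell was 0 under quantile normalisation, 2 without the dimmer genes (30 members left) and 1 to 2 with an array left out. The median of 0.27 was 0.31 under quantile normalisation, 0.41 without the dimmer genes, through the removal of 12 members whose own median was 0.0020, and 0.25 to 0.28 with an array left out. The sign turned for PGR (-0.0071 under quantile normalisation, -0.074 to 0.076 with an array left out) and TMEM123 (0.073 with the mean of probe sets, -0.071 to 0.035 with an array left out), both near 0; apart from the removal of genes the causes were not tested. With the replicate number as a block 23 members rose and 1 fell, RDX being the added call, and 15 instead of 18 complex partners passed. Same-numbered arrays correlated in their deviations by -0.04 to 0.19, and 2 of 5 parental arrays correlated best with their own number.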

Other observations

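Among unlisted genes between CEP295 and ZBTB16, the brighter genes NKAPD1 (0.47 ± 0.07), ANKRD49 (0.39 ± 0.07), CFAP300 (0.29 ± 0.09) and CEP126 (0.26 ± 0.07) also rose. Several dimmer ones passed too. The microRNA gene MIR34C rose (0.68 ± 0.09, from 3.01 to 3.69 on the log2 scale), while its neighbour MIR34B differed by 0.18 ± 0.10 and did not pass. KBTBD3 (0.55 ± 0.11) and MIR548L (0.94 ± 0.31) rose. In the matrix metalloproteinase cluster, whose enzymes cut the extracellular matrix, MMP1 fell (-0.23 ± 0.08), and MMP8, MMP10, MMP12, MMP13, MMP20 and MMP27 did not pass, with differences of 0.04 to 0.15. The microRNA genes, KBTBD3 and the metalloproteinase genes were under the median of gene means in both groups, where differences may be compressed, which was not tested. The groups of MMP1, MIR548L, CFAP300 and CEP126 overlapped, and those of MIR34C, KBTBD3, NKAPD1 and ANKRD49 did not.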
